A study of Mus musculus with 23 samples.

Results

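The 10 genes described here carry the signalling that follows DNA damage through the kinases ATR and ATM: Atr, Atrip, Topbp1, Chek1, Atm, Chek2, H2ax, Mdc1, Rnf8 and Trp53bp1. They were chosen by name, and each was read from 1 probe set, the brightest on average in wild type among those that carry a single gene symbol. The array gave 18193 genes in all, and all 10 members passed the filter on dim genes, which asked for a log2 level of at least 4 in at least 2 arrays. Together the members had 23 probe sets, from 1 each for Atrip, Mdc1, H2ax, Rnf8 and Chek2 to 6 for Trp53bp1. Atr, Atrip, Atm, Topbp1, H2ax and Chek1 lie on mouse chromosome 9, Mdc1 and Rnf8 on chromosome 17, Chek2 on chromosome 5 and Trp53bp1 on chromosome 2.

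The study sorted testis cells of male mice aged 10 to 16 weeks by flow cytometry after Hoechst staining of DNA and hybridised total RNA to Affymetrix expression arrays. Wild-type cells came from C57BL6xDBA2J F1 males and gave 20 arrays: 4 of spermatogonia, 3 of pre-leptotene, 3 of leptotene/zygotene, 1 of early pachytene, 2 of mid-pachytene, 1 of late pachytene, 2 of diplotene and 4 of round spermatids. Spo11-/- males, which lack the enzyme that makes the programmed DNA breaks of meiosis, gave 1 array each of spermatogonia, pre-leptotene and leptotene/zygotene. The Spo11-/- fractions were pooled from 2 collections of 4 and 3 mice. No strain is given for the Spo11-/- mice, so genotype and strain cannot be told apart, and whether their 3 arrays share mice is not stated. Values below are log2(intensity + 1) unless another scale is named, and errors of levels are SD. In bulk fractions, fewer cells of a type and less RNA per cell cannot be told apart.

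ATR and ATM are large related protein kinases. ATR is brought by its partner ATRIP to single-stranded DNA coated with replication protein A, is switched on by TOPBP1 and passes the signal to the checkpoint kinase CHEK1. ATM answers to double-strand breaks and acts through the checkpoint kinase CHEK2. Either kinase can phosphorylate the histone H2AX, which is then bound by MDC1; the ubiquitin ligase RNF8 follows, and 53BP1, the product of Trp53bp1, is recruited to the marked chromatin. In male meiosis ATM acts on the breaks made by SPO11, while ATR, TOPBP1, H2AX and MDC1 gather on the unsynapsed X and Y chromosomes of pachytene cells, where they are needed for silencing of the sex chromosomes.

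Promoters of 9 of the members were matched by symbol in RefSeq (GRCm38.p6); H2ax was not matched. Each window ran from 250 bases before to 50 bases after the start of the gene. The E2F-type letters GCGGGAA, searched on both strands, where the reverse complement is TTCCCGC, occurred in 5 of the 9 member windows: Atm, Chek1, Chek2, Mdc1 and Rnf8. Among all 32851 windows of the same length 4.6% held these letters, and among the 13565 windows of genes tested in the wild-type fit 7.91% did. The sequences are shown because the 5 genes differ in course, Mdc1 being highest in late pachytene and the other 4 in pre-leptotene cells. The stretch before the start is printed whole for Mdc1, Rnf8 and Chek2, and only the match and its neighbours for Atm and Chek1, where it lies after the start. Each reads 5′ to 3′ on the strand of the gene, with the matched letters in capitals.
Mdc1 (plus strand, chr17:35841248-35841497): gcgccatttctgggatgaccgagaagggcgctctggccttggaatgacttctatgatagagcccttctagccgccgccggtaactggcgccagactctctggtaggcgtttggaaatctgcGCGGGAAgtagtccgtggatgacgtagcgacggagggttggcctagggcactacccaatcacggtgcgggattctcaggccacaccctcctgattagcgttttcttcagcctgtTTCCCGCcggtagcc
Rnf8 (plus strand, chr17:29614539-29614788): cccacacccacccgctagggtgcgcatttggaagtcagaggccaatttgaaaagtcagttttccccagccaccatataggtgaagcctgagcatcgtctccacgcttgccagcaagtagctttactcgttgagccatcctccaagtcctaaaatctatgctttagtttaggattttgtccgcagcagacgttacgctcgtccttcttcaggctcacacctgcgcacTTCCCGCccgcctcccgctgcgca
Chek2 (plus strand, chr5:110839733-110839982): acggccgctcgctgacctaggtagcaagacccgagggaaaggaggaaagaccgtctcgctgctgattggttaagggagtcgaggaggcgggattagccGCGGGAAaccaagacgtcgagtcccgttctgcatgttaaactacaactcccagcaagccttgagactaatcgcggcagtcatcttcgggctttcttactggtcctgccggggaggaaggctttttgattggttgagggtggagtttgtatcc
Atm (minus strand, chr9:53536638-53536667): tagagccggaaGCGGGAAggcgtgcgtaca
Chek1 (minus strand, chr9:36726609-36726626): agcaggttttgGCGGGAA

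Mdc1 held 2 such matches, with first bases at positions -129 and -15 counted from the start of the gene, and Rnf8 and Chek2 held 1 each, at -24 and -152. In Atm and Chek1 the match began at positions 16 and 44. The cAMP response core TGACGT (reverse complement ACGTCA) occurred in the windows of Atrip, Mdc1 and Trp53bp1, against 7.51% of all windows and 10.7% of those of tested genes. The CCAAT box letters ATTGG (reverse complement CCAAT) occurred in Atrip, Atm, Mdc1, Rnf8 and Chek2, against 37.4% of all windows. No match overlapped another, and a match describes the letters of a window only.

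The marker lists bear on what each fraction held. Markers of pachytene and diplotene cells summed to an intensity of 66300 and 96900 in the mid-pachytene arrays and to 2100 to 6030 in the pre-leptotene arrays, but also to 5300 to 22700 in spermatogonia, 13000 to 30100 in leptotene/zygotene and 84200 to 101000 in round spermatids. Spermatogonial markers summed to 19900 to 29800 in spermatogonia and to 124 to 832 in round spermatids, but to 24500 to 31200 in pre-leptotene and 22400 to 29700 in leptotene/zygotene. The 4 leptotene/zygotene markers summed to 3260 to 7540 in spermatogonia, 5460 to 6760 in pre-leptotene and 4790 to 6840 in leptotene/zygotene, so neither list separated these 3 fractions. Transcripts of round spermatids, such as protamine and transition protein genes, went against the labels of the early fractions: all 9 were at or above log2 4 in every wild-type array, and their sum was 43800 to 181000 in the spermatogonia arrays, a range that spans the 92600 to 131000 of round spermatids. Arrays 1 and 2 of spermatogonia had the highest sums, 135000 and 181000, and the members' results that use spermatogonia were also computed without them. In the 3 Spo11-/- arrays these sums were 67.4 to 89.6, with 0 or 1 of the 9 markers at or above log2 4. The part of these transcripts in the members' values was not tested.

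**Figure D1:**
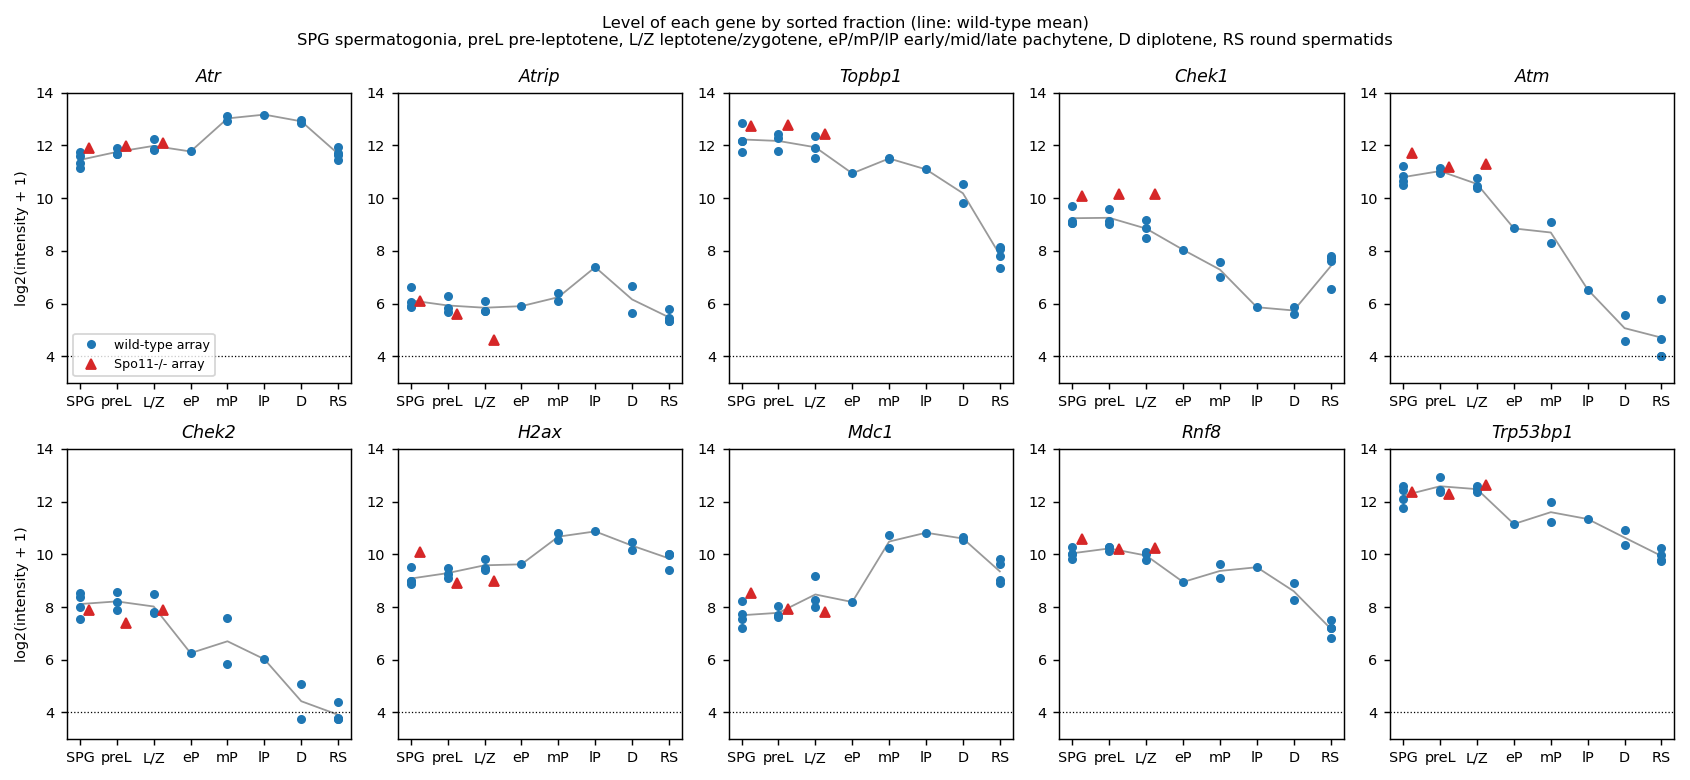
Log2(intensity + 1) of each member (vertical axis) in every array, by sorted fraction (horizontal axis); circles are wild-type arrays, the line joins wild-type fraction means, triangles are single Spo11-/- arrays and the dotted line is the filter level of 4. Atr, H2ax and Mdc1 are highest in mid-pachytene to diplotene, Atm, Chek2 and Topbp1 fall to their lowest level in round spermatids, and Chek1 is lowest in diplotene.

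Over the wild-type course, 9 of the 10 members changed by limma's moderated F test over the 6 fractions with at least 2 arrays, beside 78% of all 13087 genes tested. Atrip was the exception, with a range of 0.77 over those fractions and an adjusted p of 0.142, or 1.19 and 0.0339 without diplotene array 2. Over all 8 fractions, Atm had the widest range of the members, 6.32, at the 96th percentile of all genes tested, whose median range was 2.54. Topbp1 (4.38), Chek2 (4.3), Chek1 (3.52), Mdc1 (3.13), Rnf8 (3.04) and Trp53bp1 (2.64) were also above that median, and Atrip (1.9), H2ax (1.79) and Atr (1.72) below it.

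The members fell into rising and falling courses rather than a shared one. Fraction means of Atr, H2ax and Mdc1 were highest in late pachytene and lowest in spermatogonia, and their pairwise Pearson correlations over the 8 fraction means were 0.944 for Atr with H2ax, 0.923 for Atr with Mdc1 and 0.967 for H2ax with Mdc1. Means of Atm, Chek2, Rnf8 and Trp53bp1 were highest in pre-leptotene and lowest in round spermatids; correlations were 0.977 for Atm with Chek2, 0.982 for Chek2 with Trp53bp1 and 0.985 for Rnf8 with Topbp1. Chek1 and Mdc1 ran opposite, at -0.933. These correlations describe 8 means from the same arrays, and early and late pachytene rest on 1 array each.

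Atr, the kinase itself, was highest from mid-pachytene to diplotene and back near its early level in round spermatids. Its arrays read 11.34, 11.13, 11.75 and 11.58 in spermatogonia, 11.67, 11.91 and 11.68 in pre-leptotene, and 11.81, 12.26 and 11.88 in leptotene/zygotene. Mid-pachytene read 12.93 and 13.12, late pachytene 13.17 and diplotene 12.97 and 12.86, and round spermatids 11.44, 11.64, 11.94 and 11.7. Every array from mid-pachytene to diplotene was thus above every other wild-type array, and the lowest fractions, from pre-leptotene to round spermatids and spermatogonia, overlapped. From leptotene/zygotene to mid-pachytene Atr rose by 1.04 ± 0.25 on the log2 scale (SE), a fold of 2.06 (limma, adjusted p = 0.00496), and from diplotene to round spermatids it fell by 1.24 ± 0.23 (adjusted p = 0.00104). The rise against spermatogonia was 1.57 ± 0.23 (adjusted p = 7.31e-05), and 1.36 (adjusted p = 0.00112) without spermatogonia arrays 1 and 2. Against leptotene/zygotene it missed the threshold without leptotene/zygotene array 1 (0.95) or 3 (0.99) or without mid-pachytene array 2 (0.95). With the mean of all probe sets of Atr, that rise was 0.89 (adjusted p = 0.19) and the change from diplotene to round spermatids -1.31 (adjusted p = 0.0554), neither called, and the F test over the fractions gave an adjusted p of 0.0517.

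Atrip, which carries ATR to single-stranded DNA, passed the test in no comparison with all arrays. It read 5.88 to 6.62 in spermatogonia, 5.67 to 6.29 in pre-leptotene, 5.7 to 6.09 in leptotene/zygotene, 6.4 and 6.08 in mid-pachytene, 6.66 and 5.65 in diplotene and 5.33 to 5.79 in round spermatids. The single late pachytene array, at 7.38, was above all others. The change from leptotene/zygotene to mid-pachytene was 0.4 ± 0.32 (adjusted p = 0.369). From diplotene to round spermatids it was -0.68 ± 0.31 (adjusted p = 0.114), but -1.19 (adjusted p = 0.0253), past both thresholds, without diplotene array 2. The change from mid-pachytene to round spermatids was -0.77 ± 0.31 (adjusted p = 0.0445, under the fold minimum).

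Topbp1, the activator of ATR, fell after mid-pachytene and was lowest in round spermatids. Spermatogonia read 11.75, 12.17, 12.84 and 12.15, leptotene/zygotene 11.54, 12.34 and 11.91, and mid-pachytene 11.51 and 11.5. The single early pachytene array read 10.94, below the mid-pachytene arrays and every earlier one, and the single late pachytene array 11.09. Diplotene read 10.54 and 9.83, and round spermatids 8.15, 8.07, 7.34 and 7.82, with no overlap between consecutive groups from mid-pachytene on. The change into mid-pachytene was -0.42 ± 0.36 (adjusted p = 0.394). From mid-pachytene to diplotene Topbp1 fell by 1.32 ± 0.39 (adjusted p = 0.0233), a call lost without mid-pachytene array 1 (adjusted p = 0.111) or 2 (0.0732) or diplotene array 2 (0.216). From diplotene to round spermatids it fell by 2.34 ± 0.34 (adjusted p = 0.000148), and from mid-pachytene to round spermatids by 3.66 ± 0.34, a fold of 12.6 (adjusted p = 7.89e-07).

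Chek1, the effector kinase of ATR, ran against Atr: by the probe set used it fell through pachytene and was higher again in round spermatids. It read 9.07, 9.05, 9.7 and 9.13 in spermatogonia, 9.14, 9.02 and 9.6 in pre-leptotene, 8.85, 8.5 and 9.18 in leptotene/zygotene, 8.04 in early pachytene, 7.58 and 6.99 in mid-pachytene, 5.86 in late pachytene and 5.86 and 5.61 in diplotene. Round spermatids read 7.79, 7.61, 7.71 and 6.54. The mid-pachytene arrays lay below all earlier ones, the diplotene arrays below those, and the round spermatid arrays above diplotene and across the mid-pachytene values. Chek1 fell by 1.56 ± 0.37 from leptotene/zygotene to mid-pachytene (adjusted p = 0.00496) and by 1.55 ± 0.4 to diplotene (adjusted p = 0.0117). It then rose by 1.68 ± 0.35 to round spermatids, a fold of 3.2 (adjusted p = 0.00218). That change was 0.18 on the probe set 1449708_s_at (adjusted p = 0.921) and 0.48 with the mean of all its probe sets (adjusted p = 0.235), neither of them called. The falls into mid-pachytene and diplotene were not called either with the mean of all its probe sets. From mid-pachytene to diplotene 1449708_s_at gave -1.61 ± 0.74 (limma, adjusted p = 0.154, not called). The first fall missed the threshold without mid-pachytene array 2 (-1.27, adjusted p = 0.0914) and the fall to diplotene without mid-pachytene array 1 (0.125) or diplotene array 2 (0.0871).

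Atm, the kinase of the break response, had the deepest fall of the members. It read 10.64, 10.48, 11.22 and 10.85 in spermatogonia, 10.96, 10.98 and 11.14 in pre-leptotene and 10.37, 10.78 and 10.46 in leptotene/zygotene. Early pachytene read 8.85, mid-pachytene 9.1 and 8.29, late pachytene 6.53, diplotene 5.57 and 4.56, and round spermatids 6.17, 3.99, 4.02 and 4.64. Spermatogonia overlapped the 2 fractions that followed, every array from early pachytene on was below all of them, and diplotene overlapped round spermatids near the filter level. The fall was 1.84 ± 0.52 into mid-pachytene (adjusted p = 0.0131), where it missed the threshold without mid-pachytene array 2 (-1.43, adjusted p = 0.171). From mid-pachytene to diplotene Atm fell by 3.63 ± 0.56, a fold of 12.4 (adjusted p = 0.000359), and this call was kept with each array left out in turn. The change from diplotene to round spermatids was -0.36 ± 0.49 (adjusted p = 0.682).

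Chek2, the effector kinase of ATM, fell with it. Its arrays read 8.53, 7.53, 8.39 and 8 in spermatogonia, 8.56, 7.88 and 8.2 in pre-leptotene, 8.48, 7.81 and 7.77 in leptotene/zygotene, 6.25 in early pachytene, 7.58 and 5.82 in mid-pachytene, 6.02 in late pachytene and 5.09 and 3.76 in diplotene. Round spermatids read 3.75, 4.38, 3.77 and 3.74, so 3 of 4 arrays were under the filter level. Mid-pachytene array 1 lay inside the spermatogonial range and array 2 below it. Chek2 fell by 1.32 ± 0.49 into mid-pachytene (adjusted p = 0.0471), by 2.27 ± 0.53 from there to diplotene (adjusted p = 0.00613) and was lower again in round spermatids than in mid-pachytene, by a fitted 2.79 ± 0.46 (adjusted p = 0.000118). With so many arrays under the filter level, as was diplotene array 2, the last 2 sizes are not exact. The fall into mid-pachytene lost its call under 19 of 29 other settings, with values from -2.2 to -0.45, the last without mid-pachytene array 2. The fall to diplotene lost it without mid-pachytene array 1 (-1.39, adjusted p = 0.124) or diplotene array 2 (-1.61, adjusted p = 0.105).

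H2ax, the histone variant that both kinases mark, rose into mid-pachytene and stayed above its spermatogonial level in diplotene. Spermatogonia read 8.98, 8.97, 9.51 and 8.86, pre-leptotene 9.1, 9.27 and 9.49, and leptotene/zygotene 9.42, 9.84 and 9.49. Early pachytene read 9.62, mid-pachytene 10.54 and 10.8, late pachytene 10.87, diplotene 10.48 and 10.18, and round spermatids 9.4, 10, 10 and 9.98. The arrays from mid-pachytene to diplotene were above all others, and round spermatids overlapped leptotene/zygotene. H2ax rose by 1.09 ± 0.27 from leptotene/zygotene to mid-pachytene (adjusted p = 0.00695) and by 1.59 ± 0.26 against spermatogonia, a fold of 3.01 (adjusted p = 0.000154). The first of these missed the threshold without mid-pachytene array 2 (0.96, adjusted p = 0.0897). From mid-pachytene to round spermatids the change was -0.82 ± 0.26 (adjusted p = 0.0131), under the fold minimum.

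Mdc1, the large adaptor that binds marked H2AX, had the largest rise of the members into mid-pachytene. Spermatogonia read 7.74, 7.21, 8.24 and 7.56, pre-leptotene 7.69, 8.03 and 7.62, leptotene/zygotene 7.99, 9.16 and 8.28, and early pachytene 8.19. Mid-pachytene read 10.24 and 10.73, late pachytene 10.82, diplotene 10.66 and 10.54, and round spermatids 9.01, 8.93, 9.82 and 9.65. The step lay between the early and mid-pachytene arrays, and round spermatids stayed above all spermatogonia and pre-leptotene arrays. Mdc1 rose by 2.01 ± 0.38 from leptotene/zygotene to mid-pachytene, a fold of 4.03 (adjusted p = 0.00135), and by 2.8 ± 0.36 against spermatogonia, a fold of 6.95 (adjusted p = 2.26e-05). Both calls were kept with each array left out in turn. Mdc1 fell by 1.25 ± 0.36 from diplotene to round spermatids (adjusted p = 0.017), a call lost without diplotene array 1 (0.123) or 2 (0.0648).

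Rnf8, the ubiquitin ligase that follows MDC1, was lowest in round spermatids. Spermatogonia read 10.03, 9.84, 10.26 and 10.03, pre-leptotene 10.11, 10.29 and 10.27, leptotene/zygotene 10.09, 10 and 9.77, early pachytene 8.95, mid-pachytene 9.62 and 9.12, late pachytene 9.51 and diplotene 8.93 and 8.27. Round spermatids, at 7.5, 7.2, 7.21 and 6.81, were below every other array. The change into mid-pachytene was -0.58 ± 0.27 (adjusted p = 0.104). Rnf8 fell by 1.42 ± 0.25 from diplotene to round spermatids (adjusted p = 0.000724) and by 2.19 ± 0.25 from mid-pachytene to round spermatids, a fold of 4.55 (adjusted p = 4.9e-06).

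Trp53bp1, whose product limits resection of broken ends, was lowest in round spermatids by the probe set used. The second brightest probe set, 1426957_at, had its lowest mean in diplotene, 9.28, against 9.91 in round spermatids. The probe set used read 12.61, 11.74, 12.46 and 12.11 in spermatogonia, 12.92, 12.37 and 12.46 in pre-leptotene, 12.58, 12.47 and 12.37 in leptotene/zygotene, 11.15 in early pachytene, 11.99 and 11.21 in mid-pachytene, 11.34 in late pachytene, 10.91 and 10.36 in diplotene and 10.24, 9.78, 9.97 and 9.76 in round spermatids. Mid-pachytene overlapped spermatogonia but not leptotene/zygotene, and round spermatids were below all other arrays. The change into mid-pachytene was -0.87 ± 0.31 (adjusted p = 0.0435), under the fold minimum, and without mid-pachytene array 1 it was -1.26 (adjusted p = 0.0218), past both thresholds. From mid-pachytene to round spermatids Trp53bp1 fell by 1.66 ± 0.3, a fold of 3.17 (adjusted p = 0.000237).

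Counted by step, no member passed the test between spermatogonia and pre-leptotene, or between pre-leptotene and leptotene/zygotene, where programmed breaks are made and first repaired. By limma 1.7% and 3.11% of all genes passed at these steps, and 0 members had an unadjusted p under 0.05 at either. With the replicate number as a block, fitted to the 18 arrays that carry one, 627 of 13032 genes passed at the first step, still with 0 members. Without spermatogonia arrays 1 and 2, 37 of 13042 genes and 0 members passed there. The marker lists of spermatogonia and of leptotene/zygotene did not separate these 3 fractions either. From leptotene/zygotene to mid-pachytene 6 of 10 members passed, 3 rising (Atr, H2ax, Mdc1) and 3 falling (Atm, Chek1, Chek2), beside 29.3% of all genes (14.2% higher, 15.2% lower). The members' median change was -0.5, against -0.07 over all genes. Without mid-pachytene array 2 only Mdc1 passed.

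From mid-pachytene to diplotene 4 members passed, all falling (Atm, Topbp1, Chek1, Chek2), beside 21.5% of all genes, of which 14.5% were lower. The members' median was -0.87, against -0.01. Without mid-pachytene array 1 or diplotene array 2 only Atm passed, and only Atm passed when the 4 arrays of these fractions were fitted alone. From diplotene to round spermatids 4 members fell (Atr, Topbp1, Mdc1, Rnf8) and Chek1 rose, beside 24.4% of all genes (12.5% higher, 12% lower), with medians of -0.69 and -0.01.

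Over the longer spans, mid-pachytene against spermatogonia gave the same 3 members higher and 3 lower as against leptotene/zygotene, beside 36.7% of all genes (17.5% higher, 19.2% lower), with medians of -0.65 and -0.14. The 6 genes were also called without spermatogonia arrays 1 and 2. Without mid-pachytene array 2, Atm (-1.69, adjusted p = 0.0674) and Chek2 (-0.54, adjusted p = 0.498) were not called, and without spermatogonia array 1 Chek2 was not (-1.28, adjusted p = 0.0518). Round spermatids against mid-pachytene gave 7 members lower (Atr, Atm, Topbp1, Mdc1, Rnf8, Chek2, Trp53bp1) and 0 higher, beside 47.9% of all genes, of which 26.6% were lower. The medians were -1.5 and -0.02. Mdc1 was not called there without mid-pachytene array 2 (-0.89) or round spermatid array 2 (-0.99). These comparisons share arrays with one another.

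The arrays of 2 fractions lay fully apart more often than a call was made. From spermatogonia to pre-leptotene this held for 0 members, beside 8.92% of all genes, and from pre-leptotene to leptotene/zygotene for Atm and Rnf8, beside 20.3%. It held for every member but Atrip into mid-pachytene (60.4% of all genes), for 7 into diplotene (60.2%) and for 7 into round spermatids (42.9%). Between spermatogonia and mid-pachytene it held for 7, with Atrip, Chek2 and Trp53bp1 overlapping (54.9% of all genes), and between mid-pachytene and round spermatids for all but Chek1 (65%).

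**Figure D2:**
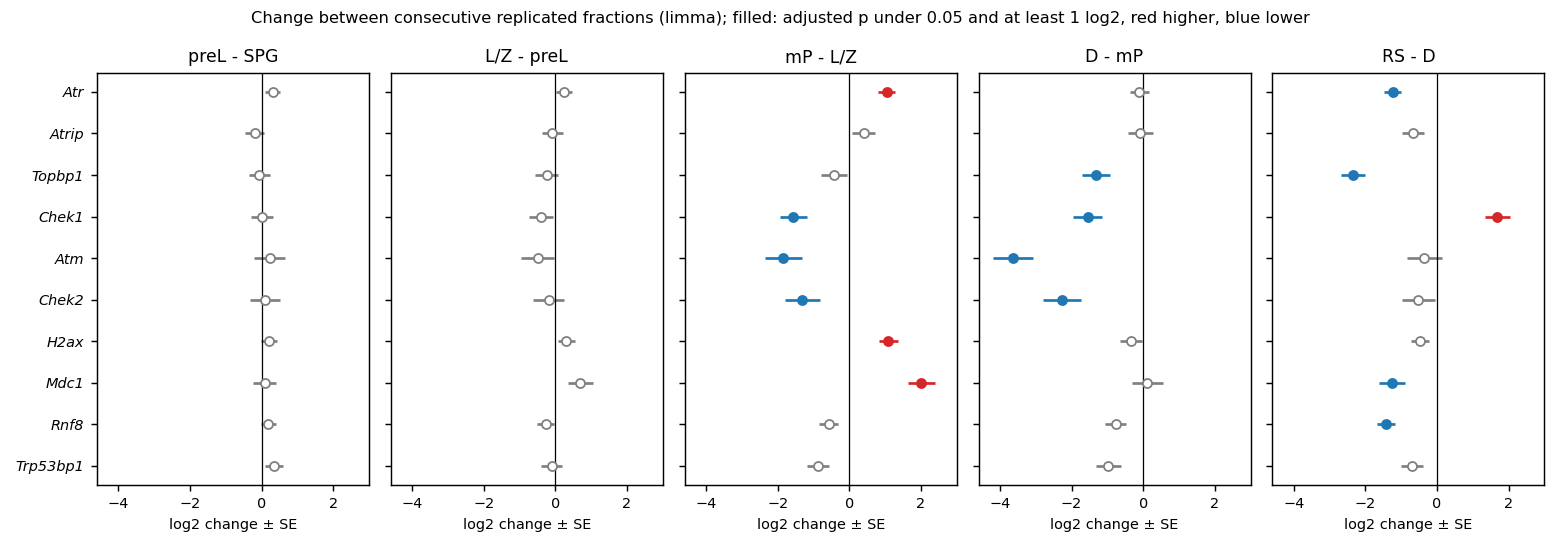
Log2 change between consecutive fractions with at least 2 arrays (horizontal axis, limma estimate with SE) for each member (vertical axis); filled points passed an adjusted p of 0.05 and a change of at least 1, red higher and blue lower. The 2 early steps have no filled point, the step into mid-pachytene has 3 red and 3 blue, and Chek1 is the only red point in the last step.

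Where a gene had several probe sets, the courses were compared among them, each on its own scale. The second Atm probe set passed the filter and fell likewise, by 1.06 ± 0.38 into mid-pachytene (adjusted p = 0.0472 over 22375 probe sets) and by 2.06 ± 0.41 from there to diplotene (adjusted p = 0.00257). For Chek1, the probe set 1449708_s_at fell by 1.96 ± 0.67 into mid-pachytene (adjusted p = 0.0403), but read 6.02 and 4.29 in diplotene and 6.39, 6.01, 5.02 and 3.92 in round spermatids, a change of 0.18 ± 0.64 (adjusted p = 0.921). The rise of Chek1 in round spermatids thus passed by the brightest probe set, 1450677_at, and not by this one, whose arrays overlapped. Of the other Chek1 probe sets, 1439208_at and 1420032_at reached log2 4 in 6 and 11 of the 23 arrays, and 1420031_at in 0.

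For Trp53bp1, the second brightest probe set, 1426957_at, read 9.72 and 10.17 in mid-pachytene and 9.94, 10.27, 10.06 and 9.37 in round spermatids. Its change was -0.03 ± 0.34 (adjusted p = 0.959), against a fall of 1.66 by the probe set used, and of the 4 Trp53bp1 probe sets tested 1426956_a_at alone passed. The dimmer probe sets of Atr gave changes of 0.79 ± 0.75 and 0.85 ± 0.72 into mid-pachytene (adjusted p = 0.483 and 0.423), of the same sign as the 1.04 of the probe set used. From mid-pachytene to round spermatids they gave -1.98 ± 0.71 (limma, adjusted p = 0.0306, called) and -1.37 ± 0.68 (0.114, not called). The dimmer Topbp1 probe set, 1458480_at, lay near the filter level, at 4.2 and 4.16 in mid-pachytene and 2.27 to 2.53 in round spermatids, so its size of change is not read. Its changes into diplotene (-0.88 ± 0.55, adjusted p = 0.325) and on to round spermatids (-0.94 ± 0.48, adjusted p = 0.188) were not called. Over the longer span, from mid-pachytene to round spermatids, it was called lower (-1.81 ± 0.48, limma, adjusted p = 0.0055).

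**Figure D3:**
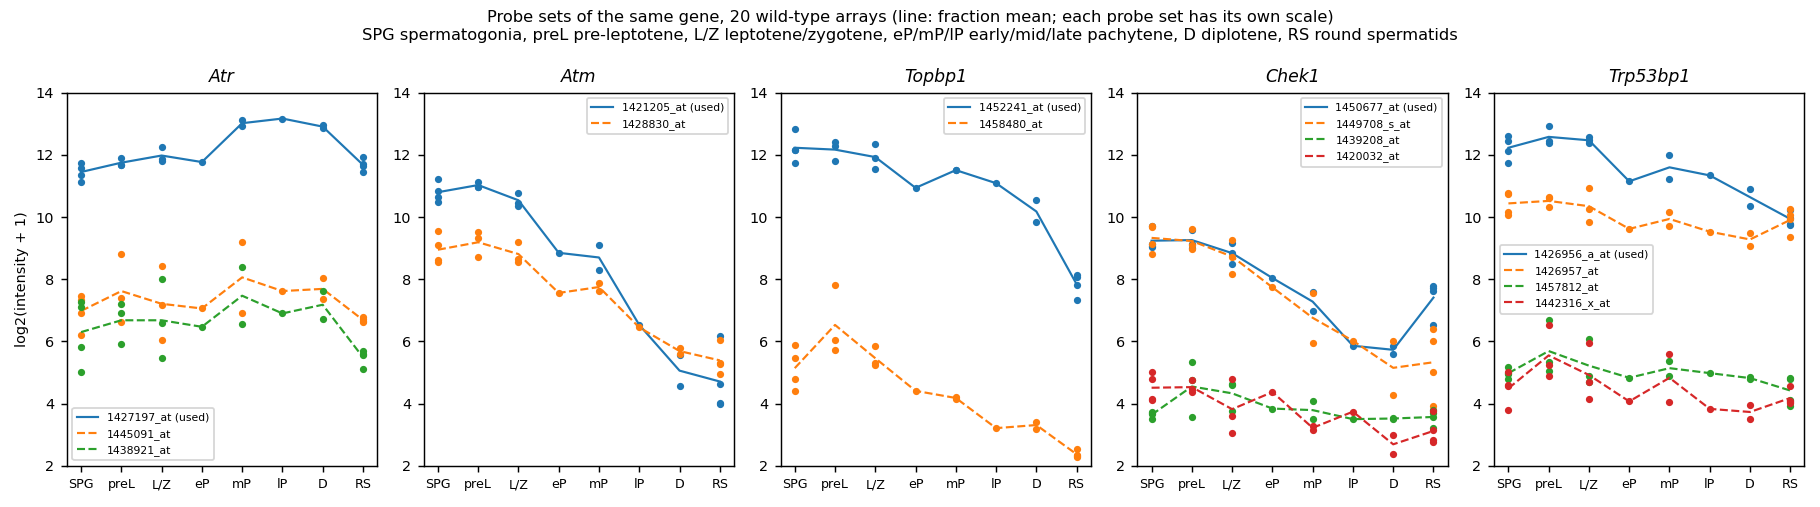
Log2(intensity + 1) (vertical axis) of the probe sets of Atr, Atm, Topbp1, Chek1 and Trp53bp1 that reached 4 in at least 2 arrays, in the 20 wild-type arrays by fraction (horizontal axis); lines join fraction means and the solid line is the probe set used. The probe sets of Atm run together, while those of Chek1 and Trp53bp1 part in round spermatids.

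Other genes ran closely with single members. By Pearson correlation of the 8 wild-type fraction means, among 10709 tested genes with a range of at least 1, the 3 genes most like Atr were Hnrnpa0 (0.988), Ptprm (0.987) and Mgat5 (0.987). Gpatch4 (0.978), Chmp4b (0.976) and Slc25a40 (0.958) were most like Atrip, and Klhl20 (0.997), Tubgcp5 (0.997) and Cldn12 (0.996) most like Topbp1. For Chek1 these were Zfp711 (0.998), Paip2b (0.996) and Ccdc71l (0.995). Baz1b, Gcsh and Tbl1x were most like Atm, each at 0.999, and Mier1 (0.996), Srfbp1 (0.996) and Aqr (0.995) most like Chek2. Rims2 (0.994), Ttc30a1 (0.986) and Sema5b (0.986) ran with H2ax, and Cspp1 (0.994), Klhdc1 (0.994) and Wwc2 (0.993) with Mdc1. Rab14 (0.998), Dnm1l (0.997) and Syncrip (0.996) led for Rnf8, and Sfr1 (0.997), Mysm1 (0.996) and Kdm5a (0.996) for Trp53bp1. With 8 shared means and many candidates, high values are common, and they are given as a description.

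The wider pathway was read from 5 lists of 42 genes, of which 38 were on the array and tested; Hus1b, L3mbtl1, Trp53 and Ccnb1 were not analysed here. At the first 2 steps 0 of 38 passed, with 3 and 2 at an unadjusted p under 0.05. From leptotene/zygotene to mid-pachytene 1 rose and 12 fell, from mid-pachytene to diplotene 2 rose and 9 fell, and from diplotene to round spermatids 8 rose and 10 fell. The median changes were -0.84, -0.41 and -0.29. Of all 13087 genes, 14.2% rose and 15.2% fell at the first of these steps, 913 genes rose and 14.5% fell at the next, and 12.5% rose and 12% fell at the last; counts of the single lists below are read against the same shares.

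The list for replication protein A, the checkpoint clamp and ATR activation had 13 genes tested. Of these, 0 rose and 5 fell into mid-pachytene, and 0 rose and 6 fell into diplotene. Clspn, the adaptor between ATR and CHEK1, fell by 1.84 ± 0.68 and then by 2.96 ± 0.74 (adjusted p = 0.0471 and 0.00904). Tipin, of the fork protection complex, fell by 1.57 ± 0.29 and by 1.99 ± 0.31 (adjusted p = 0.00104 and 0.000386). Etaa1, another activator of ATR, fell by 1.69 ± 0.37 into mid-pachytene (adjusted p = 0.00313). Atr thus rose at a step where Chek1 and Clspn fell. In round spermatids against diplotene 3 of the 13 rose and 6 fell. Rhno1 rose by 1.94 ± 0.22 (adjusted p = 2.58e-05), and the other risers, named here after their values were seen, were Tipin and Rad17, the clamp loader, by 1.73 ± 0.27 and 1.04 ± 0.27 (adjusted p = 0.000268 and 0.00924). Rad1, a clamp subunit, fell by 2.94 ± 0.58 (adjusted p = 0.0015) and Timeless, the partner of Tipin, by 2.25 ± 0.37 (adjusted p = 0.000409).

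Of the 5 genes that activate ATM, Nbn and Atmin fell into mid-pachytene, by 1.16 ± 0.31 and 1.19 ± 0.32 (adjusted p = 0.0107 and 0.0103). Kat5, the acetyltransferase that acts on ATM, rose by 1.11 ± 0.34 (adjusted p = 0.0215) and by a further 1.23 ± 0.37 into diplotene (adjusted p = 0.0267), the step at which Atm fell most. Nbn, of the complex that senses broken ends, also rose into diplotene, by 1.01 ± 0.34 (adjusted p = 0.0433).

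Among 12 genes of the chromatin ubiquitin response, 2 fell into mid-pachytene, 3 fell into diplotene, and 2 rose and 4 fell in round spermatids. Brca1 fell by 1.55 ± 0.38 and 2.47 ± 0.42 and then rose by 1.47 ± 0.36 (adjusted p = 0.00637, 0.000632 and 0.00648). Brcc3, a deubiquitinase, fell by 3.01 ± 0.48 into diplotene (adjusted p = 0.000402). Paxip1 fell by 1.1 ± 0.32 into mid-pachytene (adjusted p = 0.0154). Uimc1, which binds ubiquitin chains, fell by 1.68 ± 0.52 into diplotene (adjusted p = 0.0272).

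The 6 checkpoint effectors gave 3 falling into mid-pachytene, 0 passing into diplotene, where 3 had an unadjusted p under 0.05, and 3 rising in round spermatids. Cdc25b, a phosphatase that opens mitotic entry, fell by 3.2 ± 0.47 (adjusted p = 0.000242) and Wee1, the kinase that holds it back, by 1.75 ± 0.27 (adjusted p = 0.00039). Cdc25c rose by 2.11 ± 0.32 in round spermatids (adjusted p = 0.000198), Cdc25a by 1.6 ± 0.24 (adjusted p = 0.000172) and Ppm1d, which reverses ATM signalling, by 1.54 ± 0.39 (adjusted p = 0.00743). Hormad1 and Hormad2, the meiotic axis proteins that help bring ATR to unsynapsed chromosomes, were not called from leptotene/zygotene to mid-pachytene, the step at which Atr rose, with changes of 1.43 ± 0.64 and 0.96 ± 0.48 (adjusted p = 0.0958 and 0.139). Against spermatogonia, mid-pachytene was higher by 2.38 ± 0.6 and 1.52 ± 0.46 (adjusted p = 0.00485 and 0.0143), values not computed without spermatogonia arrays 1 and 2.

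The Spo11-/- arrays ask whether the genes differ between Spo11-/- and wild-type cells of the same fraction. By stage label, programmed breaks are made in wild type between pre-leptotene and leptotene/zygotene. The spermatogonial and leptotene/zygotene marker lists did not separate spermatogonia, pre-leptotene and leptotene/zygotene in wild type. The labels alone thus do not place an array before or after that step. The fit of fraction plus genotype gives a difference shared by all these fractions. Whether such a difference follows from the missing breaks was not tested. The Spo11 probe set read 4.3, 4.8 and 5.21 in the Spo11-/- spermatogonia, pre-leptotene and leptotene/zygotene arrays. The wild-type arrays read 4.6 to 6.69, 4.61 to 7.03 and 7.42 to 8.95 in the same fractions, so it was below every wild-type array in spermatogonia and leptotene/zygotene and within their range in pre-leptotene. Where this probe set lies relative to the deletion is not given in the sources used here.

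Chek1 was the member that differed past the threshold, and it was higher in the Spo11-/- arrays. They read 10.09, 10.17 and 10.15, against 9.05 to 9.7 in the 4 wild-type spermatogonia arrays, 9.02 to 9.6 in the 3 of pre-leptotene and 8.5 to 9.18 in the 3 of leptotene/zygotene. No Spo11-/- array overlapped any wild-type array, which was so for 12.6% of all genes and for no other member. With fraction in the model, Chek1 was higher by 1.02 ± 0.21, a fold of 2.03 (adjusted p = 0.00739 over 11980 genes), and 1 of 10 members passed beside 11.7% of all genes, of which 1.63% were higher and 10% lower. The value stands at the fold minimum and was not called without wild-type pre-leptotene array 2 (0.99), wild-type leptotene/zygotene array 2 (0.96), the Spo11-/- leptotene/zygotene array (0.88, adjusted p = 0.0671) or spermatogonia arrays 1 and 2 together (0.98). By the second probe set of Chek1 the difference was 0.64 ± 0.27 (adjusted p = 0.142).

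Against the wild-type arrays of its own fraction, the Spo11-/- spermatogonia array was above all of them for 6 members (Atr, Atm, Mdc1, H2ax, Rnf8, Chek1), beside 24.5% of all genes, and below all for 0, beside 29.3%. The pre-leptotene array was above for Atr, Atm, Topbp1 and Chek1 (27.4% of all genes) and below for Atrip, H2ax, Chek2 and Trp53bp1 (42.9%). In leptotene/zygotene it was above for 5 members, Atm, Topbp1, Rnf8, Chek1 and Trp53bp1 (27.9%), and below for Atrip, Mdc1 and H2ax (36.1%). Each of these positions rests on 1 Spo11-/- array.

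Atm was also above every wild-type array of its fraction in each of the 3 Spo11-/- arrays. It read 11.7, 11.2 and 11.29, against wild-type highest values of 11.22, 11.14 and 10.78. The difference was 0.62 ± 0.2 (adjusted p = 0.0529), and by the second Atm probe set 1.04 ± 0.26 (adjusted p = 0.023), past both thresholds. Atm and Chek1 were the 2 members with this position in all 3 fractions, held by 6.45% of all genes.

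Topbp1 read 12.73, 12.77 and 12.43 in the Spo11-/- arrays, above all wild-type arrays in pre-leptotene and leptotene/zygotene, with a difference of 0.53 ± 0.24 (adjusted p = 0.157). Atrip read 6.09, 5.62 and 4.63, the last against 5.7 to 6.09 in wild-type leptotene/zygotene, with a difference of -0.5 ± 0.25 (adjusted p = 0.186). Atr differed by 0.26 ± 0.17 (adjusted p = 0.338), Rnf8 by 0.27 ± 0.16 (0.27), Chek2 by -0.39 ± 0.26 (0.32), and Trp53bp1 by 0 ± 0.21.

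H2ax and Mdc1 stood on opposite sides of wild type in different fractions. H2ax read 10.08 in Spo11-/- spermatogonia, above the 8.86 to 9.51 of wild type, but 8.93 and 8.98 in the next 2 fractions, below 9.1 to 9.49 and 9.42 to 9.84. Mdc1 read 8.52 in spermatogonia, above 7.21 to 8.24, and 7.81 in leptotene/zygotene, below 7.99 to 9.16. Tested as an interaction of genotype and fraction, H2ax had an unadjusted p of 0.0125 and an adjusted p of 0.23, and Mdc1 0.138 and 0.666. By this test 0 members passed, 1 had an unadjusted p under 0.05, and 242 of 11980 genes passed.

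Of the 38 pathway genes 0 were higher and 1 was lower in the Spo11-/- arrays, with 9 at an unadjusted p under 0.05, beside 1.63% higher, 10% lower and 3701 of 11980 at that p over all genes. The gene called was Kat5, at 7.08 ± 0.32 (n = 3) against 8.41 ± 0.29 (n = 10) in wild type, a difference of -1.33 ± 0.22 (limma, adjusted p = 0.00186).

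Several marker lists differed between the Spo11-/- and wild-type arrays, some of them in a single fraction only. Spermatogonial marker sums were 20100 and 28200 in Spo11-/- spermatogonia and leptotene/zygotene, within the wild-type 19900 to 29800 and 22400 to 29700. In pre-leptotene the sum was 17600, below 24500 to 31200. T cell sums in Spo11-/- spermatogonia (107) and leptotene/zygotene (40.3) lay within wild type (66.4 to 385 and 36 to 43.5). Sums of the 9 round spermatid markers were 67.4 to 89.6 in the Spo11-/- arrays against 23600 to 181000 in the 10 wild-type arrays, and those of the 7 pachytene and diplotene markers 230 to 439 against 2100 to 30100. The Spo11-/- pre-leptotene array held T cell and leukocyte transcripts, with 5 of 5 T cell markers at or above log2 4 and a sum of 5700, against 38.5 to 42.1 in wild type, and 6 of 6 leukocyte markers with a sum of 21600, against 88.5 to 1720. Without that array the difference of Chek1 was 1.07 (adjusted p = 0.0232). Sums of the 5 stromal markers were 133, 4230 and 173 in the Spo11-/- spermatogonia, pre-leptotene and leptotene/zygotene arrays, against 1020 to 15300, 528 to 1770 and 428 to 1610 in wild type. The leukocyte sum of the spermatogonia fraction was 354 in Spo11-/- against 1460 to 6320. Sums of the 4 leptotene/zygotene markers were 10200, 7100 and 6740 in the Spo11-/- arrays, in the same order of fractions. Their wild-type ranges were 3260 to 7540, 5460 to 6760 and 4790 to 6840. Sums of the 6 Sertoli markers were 2610, 9040 and 8590, against 2130 to 3370, 1930 to 4720 and 4290 to 6420 in wild type. Only 3 of the 6 were at or above log2 4 in each Spo11-/- array, and 3 or 4 in the wild-type arrays of these fractions. The sums thus rest on part of the list. The part of these transcripts in the members' differences was not tested.

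**Figure D4:**
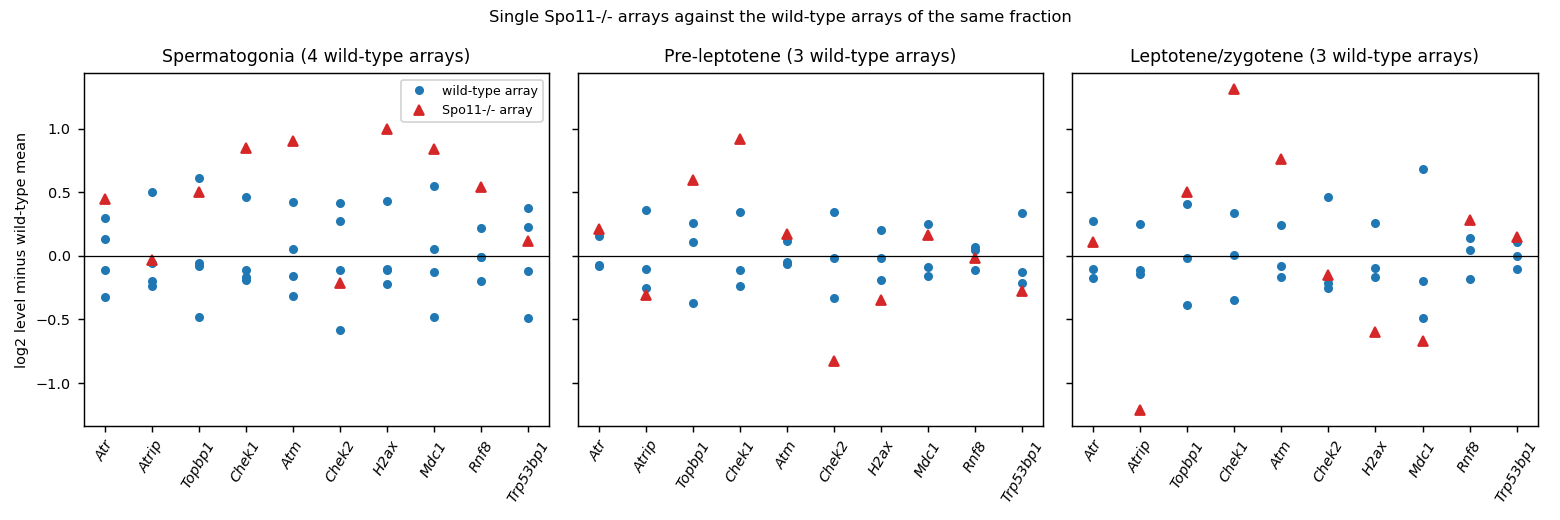
Log2 level of each member minus the wild-type mean of the same fraction (vertical axis), for the wild-type arrays (circles) and the single Spo11-/- array (triangle) of 3 fractions. Chek1 and Atm are above all circles in each panel, and H2ax changes side, from 1 in spermatogonia to -0.6 in leptotene/zygotene.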

How the data were processed

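The deposited values are Affymetrix probe set intensities on a linear scale, which the authors made with GCRMA, per the submitters' processing notes; its version and settings are not given in the sources used here. The 23 arrays ran from 1.48 to 107451, with medians of 10.63 to 12.56 and 44.2 to 47.3% of probe sets at or above log2 4. Of 45037 probe sets, 34945 had 1 symbol in the platform annotation, 932 several and 9160 none; 34741 joined RefSeq names. Values were taken as log2(intensity + 1), with no further scaling, and a gene was read from its single-symbol probe set with the highest wild-type mean (9010 of 18193 genes had over 1).

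limma 3.58.1 in R 4.3.3 was fitted to 1 mean per fraction over the 20 wild-type arrays (13087 genes), and to fraction plus genotype over 13 arrays (11980 genes). A gene was called at a Benjamini-Hochberg adjusted p under 0.05 over all genes tested and a log2 change of at least 1. The script was tested on simulated data. The members and lists were chosen with earlier results of these data known. Named genes are the members, the 3 genes most like each, and up to 4 called genes of each pathway list by size of change. Wild-type replicates are labelled biological; the number of arrays limits precision. Same-numbered arrays of spermatogonia and pre-leptotene deviated together (r = 0.53, 0.65 and 0.23). In the other comparisons r ran from 0.07 (diplotene and round spermatids, number 2) to 0.63 (mid-pachytene and diplotene, numbers 1 and 2). The main fit nevertheless had no replicate block and was unpaired at every step, and the block was used as an alternative only. Alternatives were the dim filter, probe set rule, pseudocount, scaling, variance model, fold minimum, replicate block, fewer fractions and each array left out; single probe sets, and spermatogonia arrays 1 and 2 left out together, were added after seeing the data.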

Additional observations from a re-analysis of the deposited data

Results flagged for a closer look

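In 4 of 20 groups of 4 arrays tested (the 10 members in spermatogonia and in round spermatids), 1 array stood far from the other 3 by Dixon's criterion, which chance meets in about 1 group in 20. In round spermatids, H2ax read 9.4 in array 1, against 9.98 to 10 in the others, and Chek1 read 6.54 in array 4, against 7.61 to 7.79. Chek2 read 4.38 in round spermatid array 2, against 3.74 to 3.77, near the filter level. In spermatogonia, Chek1 read 9.7 in array 3, against 9.05 to 9.13 in the others, and still below the 10.09 of the Spo11-/- array. Spermatogonia array 3 was also the highest of the 4 for every other member except Chek2 and Trp53bp1, so its high value was not particular to Chek1.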

How the results depend on the processing

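Over the members' single values, 2488 alternatives kept the side of the threshold, 60 lost the call and 12 gained it. No called value turned sign, but values not called could do so and still count among the 2488. The Spo11-/- difference of H2ax, for example, was 0.04 over all its fractions, but -0.35 in pre-leptotene and -0.6 in leptotene/zygotene alone. With each array left out, members called ranged from 0 to 0 at the first 2 steps, 1 to 7 into mid-pachytene, 1 to 6 into diplotene, 4 to 5 into round spermatids, 4 to 7 for mid-pachytene against spermatogonia, 6 to 7 for round spermatids against mid-pachytene, 9 to 10 over any fraction and 0 to 1 for Spo11-/-. With the mean of all probe sets of a gene, 4 members were called into mid-pachytene (without Atr and Chek1), 2 into diplotene, 3 into round spermatids, 7 over any fraction (without Atr and Trp53bp1) and 0 in Spo11-/-; with 2 fractions alone, 1 into diplotene. For Spo11-/-, 0 were called without spermatogonia arrays 1 and 2, and 0 in each fraction tested alone. Dim Chek1 probe sets turned sign: 1420032_at gave -0.11 and 1439208_at -0.08 in Spo11-/-, and 1439208_at 0.15 for mid-pachytene against spermatogonia. With the replicate block the members called were 0, 0, 6, 4 and 5 at the 5 steps and 6 and 7 over the longer spans, as without it; no member's call differed. This fit used the 18 arrays with a replicate number and 13032 genes in place of 13087, so the block is not its only change. It called 627 of all genes in place of 223 at the first step and 631 in place of 407 at the second, where 1 pair correlated at 0.08. Those 2 counts were 0 and 0 with 2 fractions alone, 10 and 164 with no filter, and 75 and 377 after quantile normalization; the step into diplotene gave 1108 genes in place of 2812 with 2 fractions alone. Leaving out arrays gave 8 to 595, 24 to 623, 1466 to 4013, 1341 to 2929 and 1690 to 3336 genes at the 5 steps. Arrays of 1 or 2 per fraction limit every call from mid-pachytene to diplotene.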
